A study of Mus musculus with 2 samples.

Results

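The GDNF family is described here through 7 genes, the signalling receptor Ret, the co-receptors Gfra1, Gfra2 and Gfra3 and the ligands Gdnf, Nrtn and Artn. They were taken by symbol from the gene lists of the deposited tables, and 7 of the 7 were listed in both libraries, among 39098 symbols in all (36541 in the control library against 32641 in the CFA library). RNA was measured in single cells of the right trigeminal ganglion (TG) of male C57BL/6 mice aged 5 to 8 weeks. The treated mice had received complete Freund's adjuvant (CFA), an oil emulsion with killed mycobacteria that causes local inflammation, in the right vibrissal pad a week before. The labels call the control mice untreated, while the study's methods describe an injection of saline in the same place. One library was deposited per condition and the study's methods give a group size but not how many mice went into a library, so nothing checks a difference between them by replicates, and none was tested.

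GDNF family ligands act on sensory neurons through a pair of proteins. A GFRA co-receptor, held on the membrane by a lipid anchor, binds the ligand, and the pair then activates RET, a receptor tyrosine kinase. GFRA1 is the preferred co-receptor of GDNF, GFRA2 that of neurturin (Nrtn) and GFRA3 that of artemin (Artn). In adult sensory ganglia RET is known from non-peptidergic nociceptors and some mechanoreceptors, and GFRA3 from peptidergic nociceptors. GFRA proteins also occur on glia and fibroblasts that lack RET.

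In GENCODE M21, which is built on GRCm38, Ret lies on the minus strand of chr6:118151745-118197718, Gfra1 on the minus strand of chr19:58235604-58455909, Gfra2 on the plus strand of chr14:70890120-70979838 and Gfra3 on the minus strand of chr18:34689898-34720387. The ligands Gdnf, Nrtn and Artn lie at chr15:7810846-7837575 (plus), chr17:56751325-56757530 (minus) and chr4:117926162-117929763 (minus). The annotation lists the 7 genes as protein coding. Counts were given per gene, so exons and isoforms could not be told apart.

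The control library held 7298 cells with 48916096 unique molecular identifiers (UMIs, each counting 1 captured RNA molecule), and the CFA library held 4080 cells with 22096268 UMIs. After filtering, 6695 control cells (median 1448 UMIs) and 3661 CFA cells (median 1192 UMIs) were kept. Neurons were gated by their marker UMIs and numbered 780 in the control library (median 45460 UMIs) and 401 in the CFA library (median 37246 UMIs), and they held 79.5% and 77.1% of the UMIs of kept cells. The control library stood apart in its interferon response genes, since 15.2% of its cells and 5.03% of CFA cells were high in them, and 27 cell index numbers occurred in both libraries. Levels are a class's UMIs of a gene scaled to a class total of 1000000 UMIs (CPM), with exact 95% intervals that cover counting error only. CPM is not scaled by gene length, so CPM was compared between classes and not between genes. Where Gfra genes are ranked within a neuron, the rank is of UMIs captured. Paired values give the control library before the CFA library.

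The neuron classes were non-peptidergic nociceptors with Mrgprd (NP1; 157 control and 60 CFA neurons) or Mrgpra3 (NP2; 45 and 12), C-fibre low-threshold mechanoreceptors (cLTMR; 69 and 43), peptidergic neurons with little Nefh (PEP C; 343 and 187) or much of it (PEP Nefh-high; 29 and 14), Nppb neurons (PEP2; 14 and 11), Trpm8 neurons (39 and 21) and Nefh neurons with little Calca (NF; 23 and 12). PEP C was divided by the somatostatin receptor Sstr2 into neurons without it (169 and 88), with it (97 and 63) and a group between these limits (77 and 36). No member was used for a gate. Il31ra, a gene outside the gates, bore out the PEP2 label, at 455 CPM in control PEP2 and at most 2.03 CPM in the other control classes named here. P2ry1, also outside the gates, was at 614 CPM in control cLTMR and 23.8 CPM in control NP1. The study instead names P2ry1 among the genes of its NP1 neurons, so this value goes against its annotation. Its cLTMR markers Th and Piezo2 are not given here. NF neurons went partly against their label, with the peptide gene Tac1 at 1622 CPM in the control library. NP2 and PEP2, names taken from the study, did so as well for the peptide gene Calca. In control NP2 neurons Calca was at 4677 CPM. In control PEP2 neurons, grouped by their leading Gfra gene as defined below, it was at 123 to 263 CPM.

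Ret was found in every neuron class, at the highest level in cLTMR neurons. The receptor was measured there at 1070.5 CPM (1038 to 1103) in the control library against 904 CPM (865 to 944) with CFA, and it had at least 1 UMI in 69 of 69 and 43 of 43 neurons. NP1 followed with 773 CPM (757 to 790.2) and 675 CPM (649 to 702), again in 157 of 157 and 60 of 60 neurons. The log2 ratio of cLTMR over NP1 was 0.47 (0.41 to 0.52) in the control library against 0.42 (0.34 to 0.51) with CFA.

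Below these, NP2 and the peptidergic classes had like levels of Ret. In NP2 neurons Ret was at 467 CPM (445 to 490.1) in the control library against 446 CPM (400.0 to 496) with CFA. The PEP C neurons had 482 CPM (470 to 494) and 445 CPM (429 to 462), and the log2 ratio of PEP C over NP2 had an interval of -0.03 to 0.12 for the control and of -0.17 to 0.16 for CFA, so these neighbours did not differ beyond counting error. The same held for Sstr2-negative over Sstr2-positive PEP C neurons (-0.06 to 0.11 and -0.19 to 0.06) and for PEP Nefh-high over PEP C neurons (-0.07 to 0.13 and -0.19 to 0.12).

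PEP2, NF and Trpm8 neurons came last in the control library. Ret was at 227 CPM (191 to 267) in PEP2, 162 CPM (138 to 189) in NF and 70.9 CPM (59.8 to 83.4) in Trpm8 neurons of that library. In the CFA library PEP2 had 250.1 CPM (210.0 to 296) and Trpm8 neurons had 63.5 CPM (48.3 to 81.9). NF neurons had 449 CPM (385 to 520.3) there, but 121 of their 176 Ret UMIs came from 1 neuron of the 12. Without the neuron with the most Ret UMIs in each library, NF neurons had 111 CPM in the control library against 185 CPM with CFA.

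**Figure D1:**
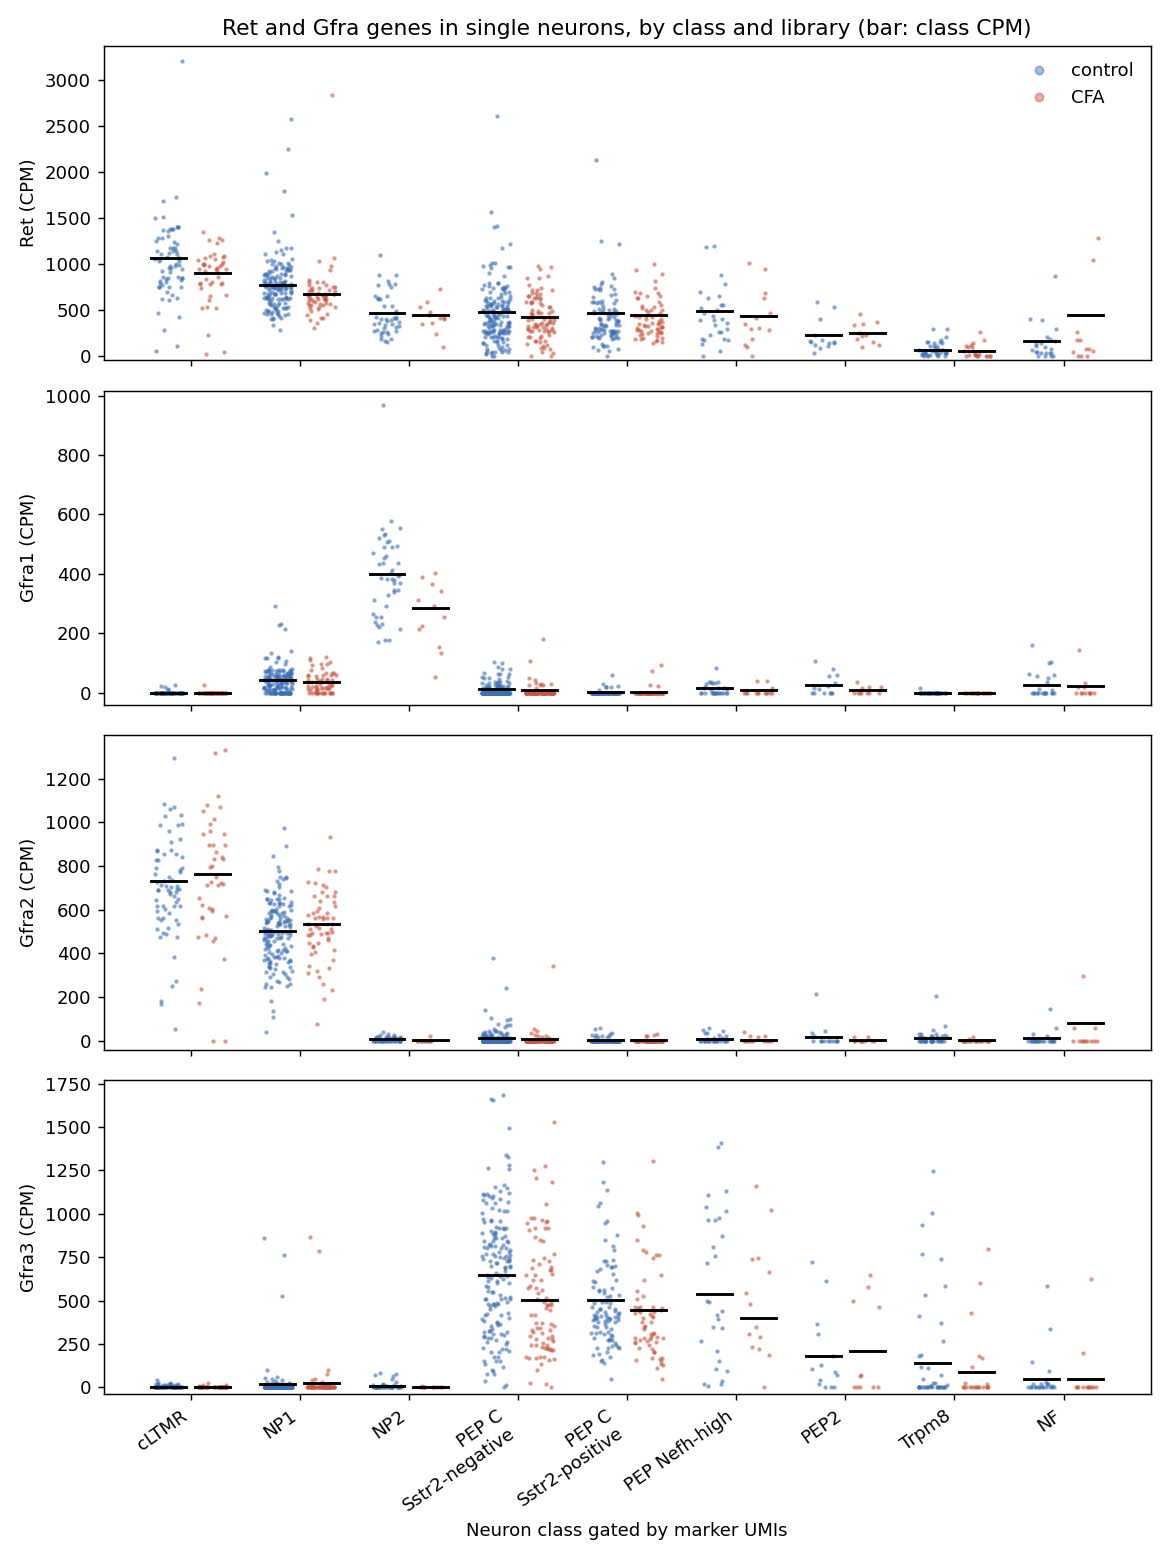
Level of Ret, Gfra1, Gfra2 and Gfra3 (CPM, linear axes) in each neuron, by class, with the control library in blue and the CFA library in red and a black bar at the CPM of the class. Gfra2 was high in cLTMR and NP1, Gfra1 in NP2 and Gfra3 in the peptidergic classes, with zeros and high values side by side for Gfra3 in PEP2 and Trpm8 neurons. PEP C neurons between the Sstr2 limits are not drawn.

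Gfra2, the co-receptor of neurturin, was measured at high levels in the same neurons as the most Ret. In cLTMR neurons Gfra2 was at 730.1 CPM (704 to 757) in the control library against 764 CPM (728 to 801) with CFA, and in NP1 neurons at 502 CPM (489 to 516) and 535 CPM (512 to 559). The log2 ratio of cLTMR over NP1 was 0.54 (0.47 to 0.61) in the control library against 0.51 (0.42 to 0.61) with CFA. Single neurons ran from 41.2 to 976 CPM of Gfra2 in control NP1 and from 56.6 to 1295 CPM in control cLTMR, so no neuron of these control classes lacked it, while 2 of 43 CFA cLTMR neurons did. In the other classes Gfra2 was at 19.2 CPM or less in both libraries, except in CFA NF neurons at 81.6 CPM, where 28 of the 32 UMIs came from 1 neuron. At least 3 UMIs of both Ret and Gfra2 were found in 154 of 157 control and 60 of 60 CFA NP1 neurons and in 68 of 69 control and 41 of 43 CFA cLTMR neurons.

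Gfra1, the co-receptor of GDNF, marked NP2. In NP2 neurons Gfra1 was at 401 CPM (381 to 423) in the control library, where single neurons ran from 172 to 968 CPM around a median of 385 CPM. The 12 CFA NP2 neurons had 287 CPM (250.1 to 328), from 53.2 to 402 CPM around a median of 274 CPM, so the ranges of the libraries overlapped. NP1 neurons held much less Gfra1, at 43.2 CPM (39.4 to 47.3) and 36.2 CPM (30.3 to 42.8), and the log2 ratio of NP2 over NP1 was 3.21 (3.06 to 3.37) in the control library against 2.99 (2.67 to 3.31) with CFA. At least 3 UMIs of Ret and of Gfra1 were found together in 45 of 45 control and 11 of 12 CFA NP2 neurons. In NP1 they were found together in 79 of 157 control (50.3%, 42.2% to 58.4%) and 22 of 60 CFA neurons (36.7%, 24.6% to 50.1%). These shares are from neurons of full depth. After thinning neurons to 5000 UMIs, at least 1 Gfra1 UMI was found in 21.2% of 156 control and 20.0% of 60 CFA NP1 neurons. In cLTMR neurons, which were thinned alike, it was found in 0 of 69 and 0 of 43. In cLTMR neurons Gfra1 was at 1.28 CPM in the control library against 0.899 CPM with CFA, from 5 and 2 UMIs. Other classes came nearer to NP1, with NF at 27.0 CPM and 23.0 CPM. PEP2 had 25.6 CPM and 9.13 CPM, and PEP Nefh-high neurons had 18.3 CPM and 10.1 CPM. The log2 ratio of NP1 over NF was 0.68 (0.12 to 1.30) in the control library against 0.66 (-0.31 to 1.81) with CFA.

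Gfra3, the co-receptor of artemin, was measured in the peptidergic neurons. Sstr2-negative PEP C neurons had 648 CPM (629 to 669) in the control library against 506 CPM (481 to 533) with CFA, and Sstr2-positive ones had 506 CPM (483 to 529) and 449 CPM (421 to 477). The log2 ratio of the Sstr2-negative over the Sstr2-positive neurons was 0.36 (0.28 to 0.44) in the control library against 0.17 (0.06 to 0.29) with CFA. PEP Nefh-high neurons had 537 CPM (505 to 570.0) and 399 CPM (359 to 443). At least 3 UMIs of both Ret and Gfra3 were found in 322 of 343 control and 173 of 187 CFA PEP C neurons. Gfra3 of at least 3 UMIs without any Ret UMI was found in 2 and 1 of these neurons.

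Gfra3 divided the neurons of the PEP2 and Trpm8 classes. In PEP2 it was at 184 CPM (152 to 221) in the control library against 212 CPM (175 to 254) with CFA, with single neurons from 0 to 721 CPM and from 0 to 650 CPM, and 3 of 14 control and 5 of 11 CFA neurons had no UMI. Trpm8 neurons had 141 CPM (125 to 159) and 88.3 CPM (70.2 to 110), and Gfra3 was found in 21 of 39 control and 8 of 21 CFA neurons, with values up to 1245 and 798 CPM. NF neurons had 47.0 CPM (34.6 to 62.5) and 51.0 CPM (31.2 to 78.8), from 10 of 23 and 2 of 12 neurons. At least 3 Gfra3 UMIs were found in 4 of the 23 control and 2 of the 12 CFA neurons. In the control library 1 NF neuron held 18 of the 47 UMIs.

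The Trpm8 neurons with Gfra3 also had more of the peptide gene Calca, which encodes CGRP. In the 15 control Trpm8 neurons where Gfra3 led, Calca was at 2157 CPM and Ret at 124 CPM, and in the 24 without a leading Gfra they were at 218 CPM and 48.9 CPM. With CFA, the values were 828 CPM of Calca and 104 CPM of Ret in 6 neurons, and 74.5 CPM and 50.1 CPM in 15 neurons. This division was chosen after the values were seen and is given as a description.

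Gfra3 in NP1 came from few neurons. NP1 as a class had 17.2 CPM (14.9 to 19.9) in the control library against 27.9 CPM (22.8 to 33.8) with CFA. Of these UMIs 135 of 187 were in 3 of 157 control neurons and 80 of 105 in 2 of 60 CFA neurons, the neurons where Gfra3 had more UMIs than the other Gfra genes. Those 3 control neurons had 7041 CPM of Calca and 237 CPM of Mrgprd, against 1068 CPM and 539.9 CPM in the 150 neurons led by Gfra2, and none was called a doublet. Whether they are doublets below the caller's limit was not tested.

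Most neurons thus had 1 leading Gfra gene, that with the most UMIs among Gfra1, Gfra2 and Gfra3 and with at least 3, a rank of captured UMIs that is not corrected for how well each gene is captured. Gfra2 led in 150 of 157 control and 58 of 60 CFA NP1 neurons, and in 68 of 69 and 41 of 43 cLTMR neurons. Gfra1 led in 45 of 45 and 11 of 12 NP2 neurons. Gfra3 led in 337 of 343 and 179 of 187 PEP C neurons, in 25 of 29 and 13 of 14 PEP Nefh-high neurons and in 9 of 14 and 6 of 11 PEP2 neurons. No gene led in 24 of 39 control and 15 of 21 CFA Trpm8 neurons and in 15 of 23 and 7 of 12 NF neurons. At least 3 UMIs of exactly 2 Gfra genes were found in 79 of 157 control and 25 of 60 CFA NP1 neurons, in 7 of 29 and 2 of 14 PEP Nefh-high neurons, in 6 of 45 and 0 of 12 NP2 neurons and in 18 of 343 and 5 of 187 PEP C neurons.

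**Figure D2:**
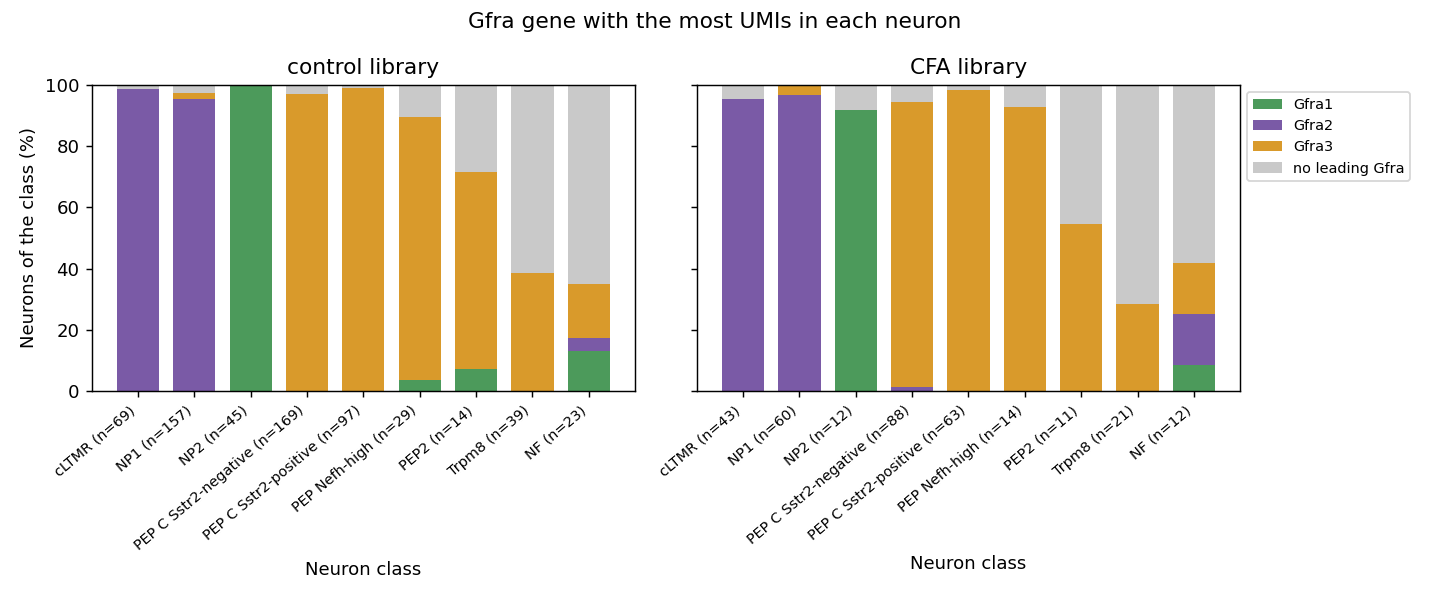
Share of neurons (%) in each class led by Gfra1 (green), Gfra2 (purple) or Gfra3 (orange) or by none of them (grey), with the number of neurons under each bar and 1 panel per library. Gfra2 fills most of the bars of cLTMR and NP1, Gfra1 those of NP2 and Gfra3 those of PEP C and PEP Nefh-high. In PEP2, Gfra3 leads in 9 of 14 control and 6 of 11 CFA neurons. Grey is the largest part in Trpm8 and NF neurons in both libraries.

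Gfra4, a further co-receptor that prefers persephin, was at 27.3 CPM in control and 24.0 CPM in CFA neurons. Its class levels ran from 8.70 CPM in NP2 to 53.3 CPM in Sstr2-positive PEP C neurons of the control library. Its ligand Pspn had 2 UMIs in the control neurons and 0 in the CFA neurons.

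Outside the neurons the Gfra genes were again held by different cells. Gfra1 was at 150.1 CPM (128 to 175) in fibroblasts of the control library against 146 CPM (116 to 182) with CFA, and at 111 CPM (98.8 to 124) and 108 CPM (91.5 to 128) in myelinating Schwann cells. Non-myelinating Schwann cells had 8.57 CPM and 18.7 CPM of it, from 4 UMIs in each library. Gfra2 had the opposite order in Schwann cells, with 199 CPM (161 to 244) and 163 CPM (114 to 227) in non-myelinating and 15.5 CPM (11.2 to 20.8) and 9.72 CPM (5.17 to 16.6) in myelinating cells. Satellite glial cells (SGCs), which wrap the neuron bodies, had 137 CPM (121 to 155) and 113 CPM (86.7 to 144) of Gfra2. Smaller classes held Gfra2 as well, with 125.5 CPM (60.2 to 231) in control mural cells from 10 UMIs, 0 UMIs in the 16 CFA mural cells, and 76.6 CPM and 76.0 CPM in erythroid cells from 2 and 6 UMIs. The log2 ratio of non-myelinating over myelinating Schwann cells was 3.69 (3.16 to 4.24) in the control library against 4.07 (3.12 to 5.11) with CFA for Gfra2, and that of myelinating over non-myelinating cells was 3.69 (2.32 to 5.57) and 2.54 (1.15 to 4.43) for Gfra1.

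Gfra3 in Schwann cells was at a higher level in the non-myelinating kind, which wraps several thin axons. That kind was gated by Scn7a, Chl1, Csmd1, Cadm2 and L1cam. In these cells Gfra3 was at 68.6 CPM (46.9 to 96.8) in the control library, from 32 UMIs in 25 of 405 cells. With CFA it was at 60.6 CPM (32.3 to 104), from 13 UMIs in 11 of 194 cells. Myelinating Schwann cells had 10.9 CPM (7.40 to 15.5) and 5.98 CPM (2.58 to 11.8). These values came from 31 UMIs in 27 of 2369 cells and from 8 UMIs in 8 of 1368 cells. In the control library the kinds thus held like numbers of Gfra3 UMIs and differed in CPM. Control mural cells had 50.2 CPM (13.7 to 129) of Gfra3, from 4 UMIs. The log2 ratio of the kinds was 2.65 (1.90 to 3.42) in the control library against 3.34 (1.96 to 4.82) with CFA, so the intervals of both libraries lay above 0. After thinning to 500 UMIs a cell, Gfra3 was found in 3.95% of 405 non-myelinating cells and 0.473% of 2328 myelinating cells of the control library, and in 2.58% of 194 and 0.150% of 1335 cells of the CFA library.

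Levels in other cells were set beside the neuronal peptide gene Calca, since free RNA from neurons can add UMIs to other cells. Free RNA itself was not measured, and its part in these values was not tested. In control neurons there were 4.70 Gfra3 UMIs for every 100 Calca UMIs. The ratio was 23.9 in control non-myelinating Schwann cells, 3.61 in myelinating Schwann cells, 2.06 in SGCs and 1.02 in fibroblasts. In the CFA library it was 5.09 in neurons, 26.5 in non-myelinating and 4.88 in myelinating Schwann cells. High ratios from few UMIs were also found in CFA macrophages (22.2, from 4 Gfra3 UMIs) and control mural cells (21.1, from 4). Among control non-myelinating Schwann cells without a Calca UMI, Gfra3 was at 68.1 CPM (43.6 to 101) in 322 cells, close to that of the whole class. Interferon-high cells made up 37.8% of control and 13.9% of CFA non-myelinating Schwann cells, and without them Gfra3 was at 93.4 CPM (61.0 to 137) and 53.5 CPM (25.7 to 98.5).

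Ret in control myelinating Schwann cells and SGCs was near the ratio it had in neurons, and in fibroblasts it was higher. There were 10.7 Ret UMIs for 100 Calca UMIs in control neurons, and 10.7 in myelinating Schwann cells, 9.15 in SGCs and 15.3 in fibroblasts of that library. With CFA these ratios were 11.02, 14.6, 4.29 and 23.4, from 3 to 24 Ret UMIs in these classes other than neurons. In the smaller control classes the ratio ran from 5 in erythroid cells, from 1 Ret UMI, to 21.1 in mural cells, from 4. Ret in non-myelinating Schwann cells was at 45.0 CPM (27.9 to 68.8) and 65.3 CPM (35.7 to 110), with 15.7 and 28.6 UMIs for 100 Calca UMIs. Without cells that held a Calca UMI it was at 25.5 CPM (11.7 to 48.5) and 38.5 CPM (15.5 to 79.3), from 9 and 7 UMIs. Gfra1 and Gfra2 stood far above their ratios in neurons in the cells named for them. For 100 Calca UMIs there were 1.02 Gfra1 UMIs in control neurons, 36.7 in myelinating Schwann cells and 54.1 in fibroblasts, and there were 4.16 Gfra2 UMIs in neurons, 69.4 in non-myelinating Schwann cells and 59.0 in SGCs.

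**Figure D3:**
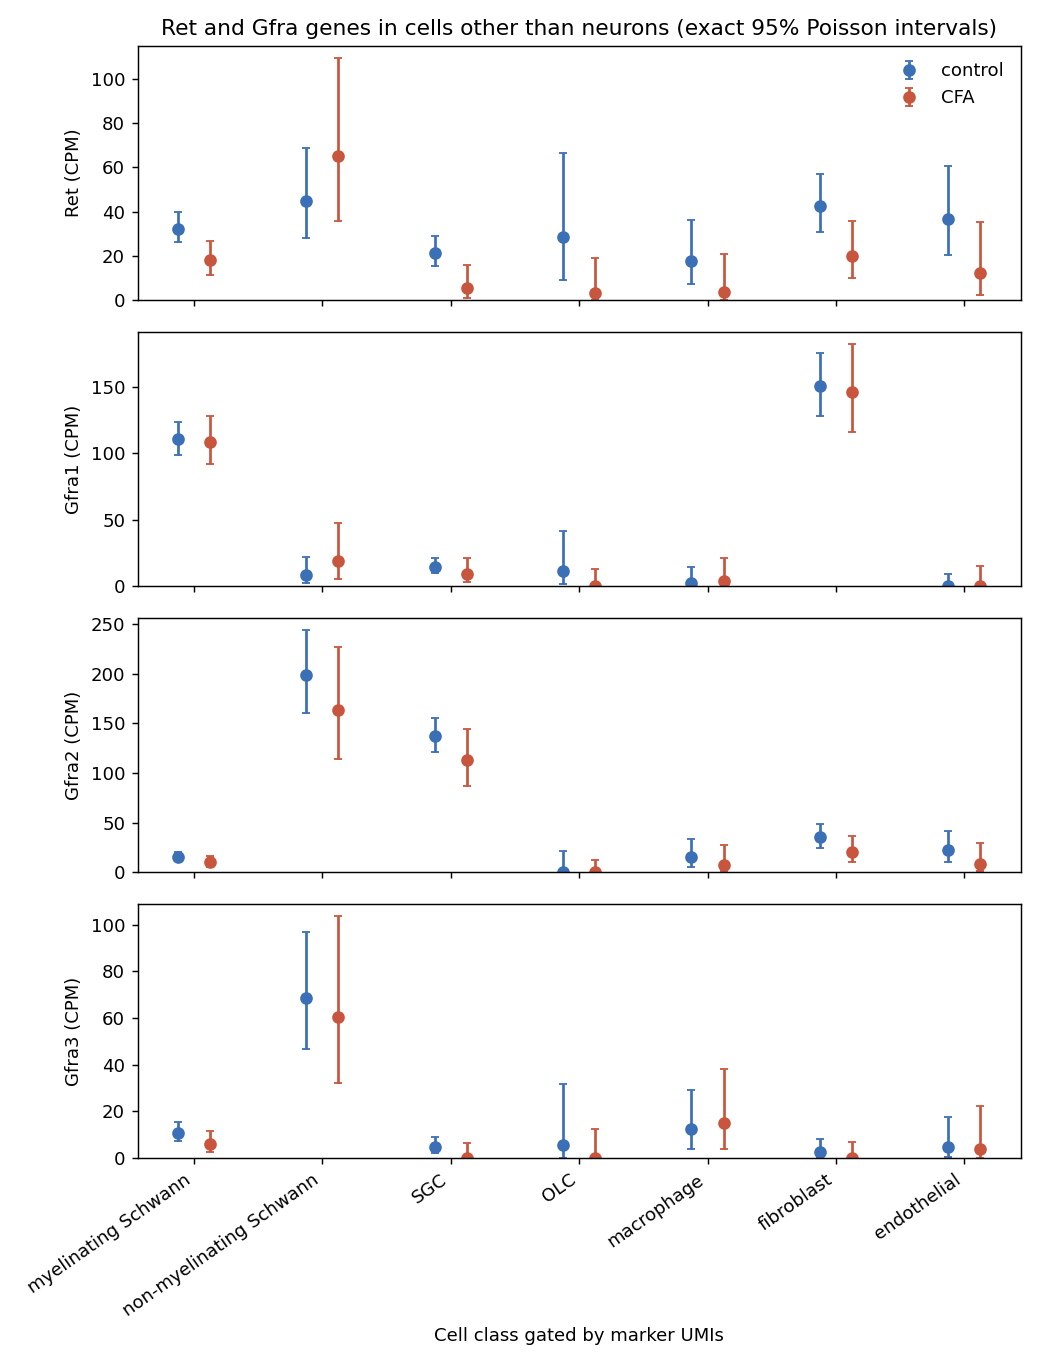
Level of Ret, Gfra1, Gfra2 and Gfra3 (CPM, linear axes from 0) in classes of cells other than neurons, with exact 95% Poisson intervals with the control library in blue and the CFA library in red (OLC, oligodendrocyte-like cells). Among the 7 classes drawn, Gfra1 stands out in fibroblasts and myelinating Schwann cells, Gfra2 in non-myelinating Schwann cells and SGCs, and Gfra3 in non-myelinating Schwann cells, in both libraries.

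The ligands were close to the limit of detection. Gdnf had 21 UMIs in 16 kept control cells and 8 in 6 kept CFA cells, Nrtn had 13 in 12 and 8 in 4 cells, and Artn had 8 in 8 and 2 in 2 cells. Of the Gdnf UMIs, 16 of 21 in the control library (76.2%, 52.8% to 91.8%) and 7 of 8 in the CFA library (87.5%, 47.3% to 99.7%) were in neurons, which held 79.5% and 77.1% of the UMIs of all genes.

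Within the neurons the Gdnf UMIs were almost all in peptidergic ones. In the control library 15 of the 16 were in 10 PEP C neurons and 1 was in an NP1 neuron. With CFA, 6 of the 7 were in 4 PEP C neurons and 1 was in a PEP Nefh-high neuron. Of the UMIs of all genes in kept cells, PEP C and PEP Nefh-high neurons together held 31.0% and 33.6%. All neurons held 79.5% and 77.1% of them. The level in PEP C neurons was 1.15 CPM (0.646 to 1.90) in the control library against 0.940 CPM (0.345 to 2.05) with CFA. The log2 ratio of all PEP (PEP C and PEP Nefh-high together) over NP1 and cLTMR together was 3.89 (1.19 to 9.28) in the control library, where the latter held 1 UMI. With CFA, NP1 and cLTMR held none, against 7 UMIs in PEP. The other control UMIs of Gdnf were in 2 macrophages, a class at 5.04 CPM (0.610 to 18.2) from these 2 UMIs, and in 3 cells without a class. PEP C over all cells other than neurons had a log2 ratio of 1.19 (-0.34 to 3.00) and 2.22 (-0.82 to 7.75), so PEP C neurons were not shown to exceed the other cells. Myelinating Schwann cells held 0 UMIs of Gdnf, which allows up to 1.05 CPM in the control library against 2.24 CPM with CFA, and SGCs held 0, which allows up to 1.596 CPM and 5.37 CPM.

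Nrtn and Artn had no main source. In the control library the Nrtn UMIs were spread over NP1 (2), NF (2 in 1 neuron), oligodendrocyte-like cells (2), fibroblasts (2) and single UMIs in 5 further groups, and 6 of the 13 were in neurons (46.2%, 19.2% to 74.9%). With CFA, 7 of 8 were in neurons (87.5%), with 4 in 1 Trpm8 neuron and 2 in 1 NF neuron. Artn was never found with more than 1 UMI in a cell, and 6 of 8 control UMIs (75.0%, 34.9% to 96.8%) and 2 of 2 CFA UMIs were in neurons. At this depth a difference of a ligand between the libraries was not detectable, and the log2 ratio of CFA over control in all neurons was 0.01 (-1.52 to 1.37) for Gdnf, 1.42 (-0.37 to 3.27) for Nrtn and -0.38 (-3.73 to 2.10) for Artn.

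**Figure D4:**
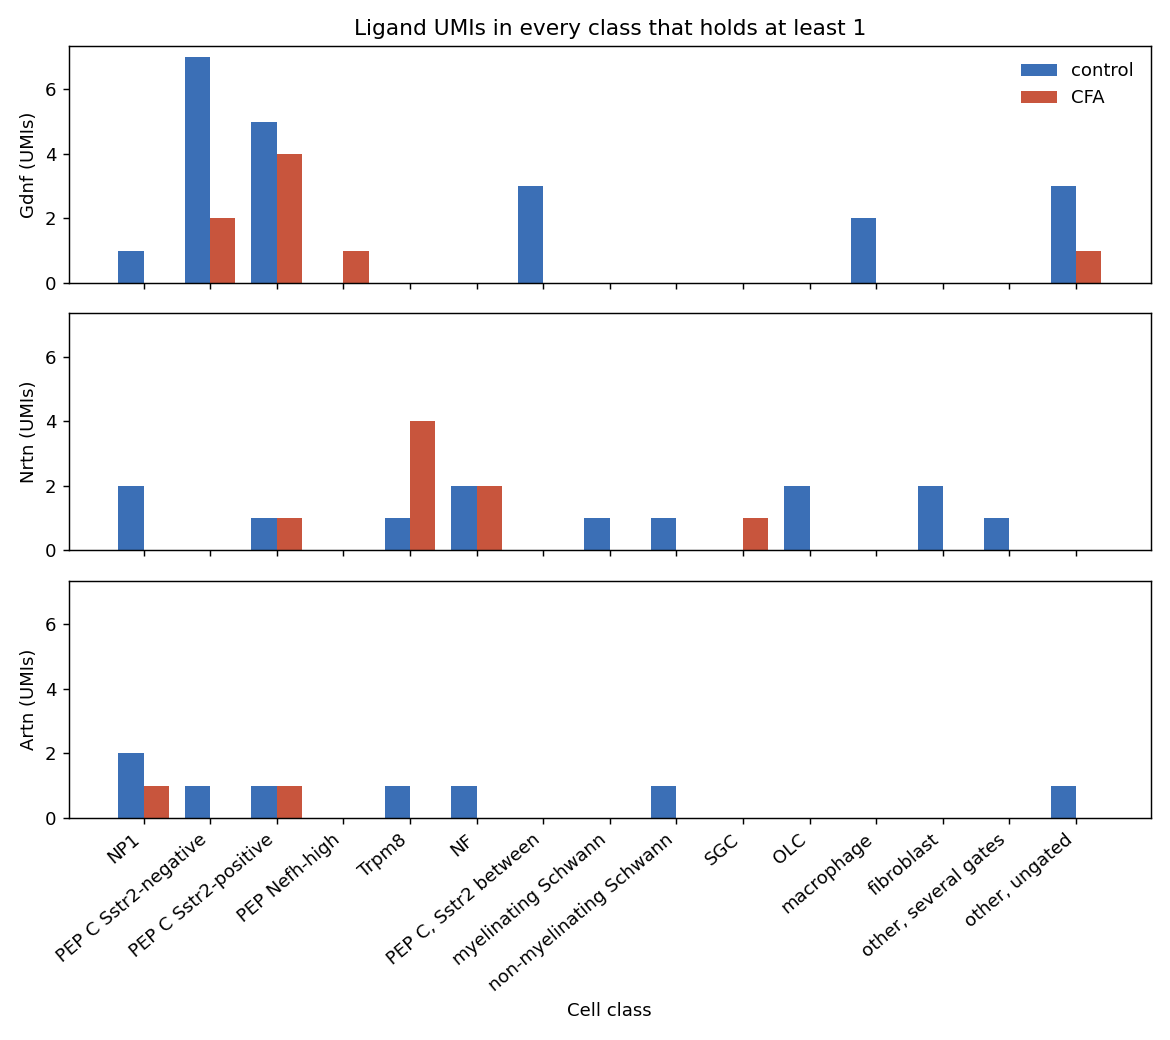
UMIs of Gdnf, Nrtn and Artn (counts) in each class of kept cells that held at least 1 of them, with the control library in blue and the CFA library in red. Gdnf UMIs gather in the PEP C groups, with up to 7 in a group, and those of Nrtn and Artn are spread with at most 4 in a class.

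Between the libraries the receptors differed little within most neuron classes. In all neurons Ret was at 587 CPM in the control library against 526 CPM with CFA, Gfra2 at 228 CPM and 236 CPM, and Gfra3 at 258 CPM and 243 CPM. The log2 ratios of CFA over control were -0.16 (-0.19 to -0.12) for Ret, 0.05 (-0.00 to 0.10) for Gfra2 and -0.09 (-0.14 to -0.04) for Gfra3. The intervals cover counting error only and say nothing of the spread between mice. The sign for Gfra3 turned (0.09) when cells with 5 or more UMIs of interferon response genes were left out, and Gfra2 then was at -0.13.

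Gfra1 differed most in all neurons, at 56.3 CPM in the control library against 28.8 CPM with CFA, a log2 ratio of -0.97 (-1.12 to -0.83). It was the 1 member past 1.5-fold of the 4 with at least 50 UMIs in both libraries, and of all 11905 genes with as many UMIs 4.69% were past it. The share of NP2, the neurons with the most Gfra1, was 45 of 780 (5.77%, 4.24% to 7.64%) in the control library against 12 of 401 (2.99%, 1.56% to 5.17%) with CFA. Within NP2 the log2 ratio was -0.48 (-0.70 to -0.28), under 1.5-fold, from 12 CFA neurons, and within NP1 it was -0.26 (-0.54 to 0.02). With each neuron class given the same weight in both libraries the ratio was -0.41. That value leaves out neurons in no class (57 control and 39 CFA) and in several gates (4 and 2), so it is not over all neurons. Without cells with 5 or more UMIs of interferon response genes the ratio over all neurons was -0.50. Neither value was past 1.5-fold. That rule left out 22 of 45 control and 2 of 12 CFA NP2 neurons, and with the rule scaled to each cell's depth, which left out none of the NP2 neurons, the ratio was -0.998.

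Within classes 19 of the 36 pairs of a receptor and a neuron class had at least 50 UMIs in both libraries, and 3 were past 1.5-fold, with a median log2 ratio of -0.16. Among all genes with as many UMIs the share past it was 2.57% in NP1, 3.48% in cLTMR, 3.29% in NP2, 4.01% in Sstr2-negative and 4.66% in Sstr2-positive PEP C, 7.13% in PEP Nefh-high, 5.75% in PEP2, 3.66% in Trpm8 and 15.9% in NF neurons. Ret in NF neurons was higher in the CFA library (1.47, 1.15 to 1.79), and the ratio was 0.74 without the neuron with the most Ret UMIs in each library. Gfra3 in NP1 was higher in the CFA library (0.70, 0.34 to 1.05), and the ratio was 0.64 without the neuron with the most Gfra3 UMIs in each library. In the NP1 neurons led by Gfra2 it was at 4.89 CPM and 6.82 CPM. Gfra3 in Trpm8 neurons was lower in the CFA library (-0.68, -1.05 to -0.32), and its sign turned to 0.89 when the marker thresholds were doubled.

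The other pairs of a receptor and a neuron class with at least 50 UMIs in both libraries lay below 1.5-fold. Ret was lower in the CFA library in cLTMR (-0.24, -0.32 to -0.17), NP1 (-0.20, -0.26 to -0.13) and Sstr2-negative PEP C neurons (-0.16, -0.25 to -0.06). Gfra3 was lower in Sstr2-negative PEP C (-0.36, -0.44 to -0.27), Sstr2-positive PEP C (-0.17, -0.29 to -0.06) and PEP Nefh-high neurons (-0.43, -0.61 to -0.25). Gfra2 was at 0.07 (-0.02 to 0.15) in cLTMR and 0.09 (0.02 to 0.17) in NP1. Interferon-high neurons were 8.28% of control and 2.27% of CFA Sstr2-negative PEP C neurons, and their part in these differences was not tested. Among non-neuronal cells Gfra1 was at -0.03 (-0.32 to 0.26) in myelinating Schwann cells and -0.04 (-0.44 to 0.36) in fibroblasts, and Gfra2 at -0.28 (-0.70 to 0.12) in SGCs.

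**Figure D5:**
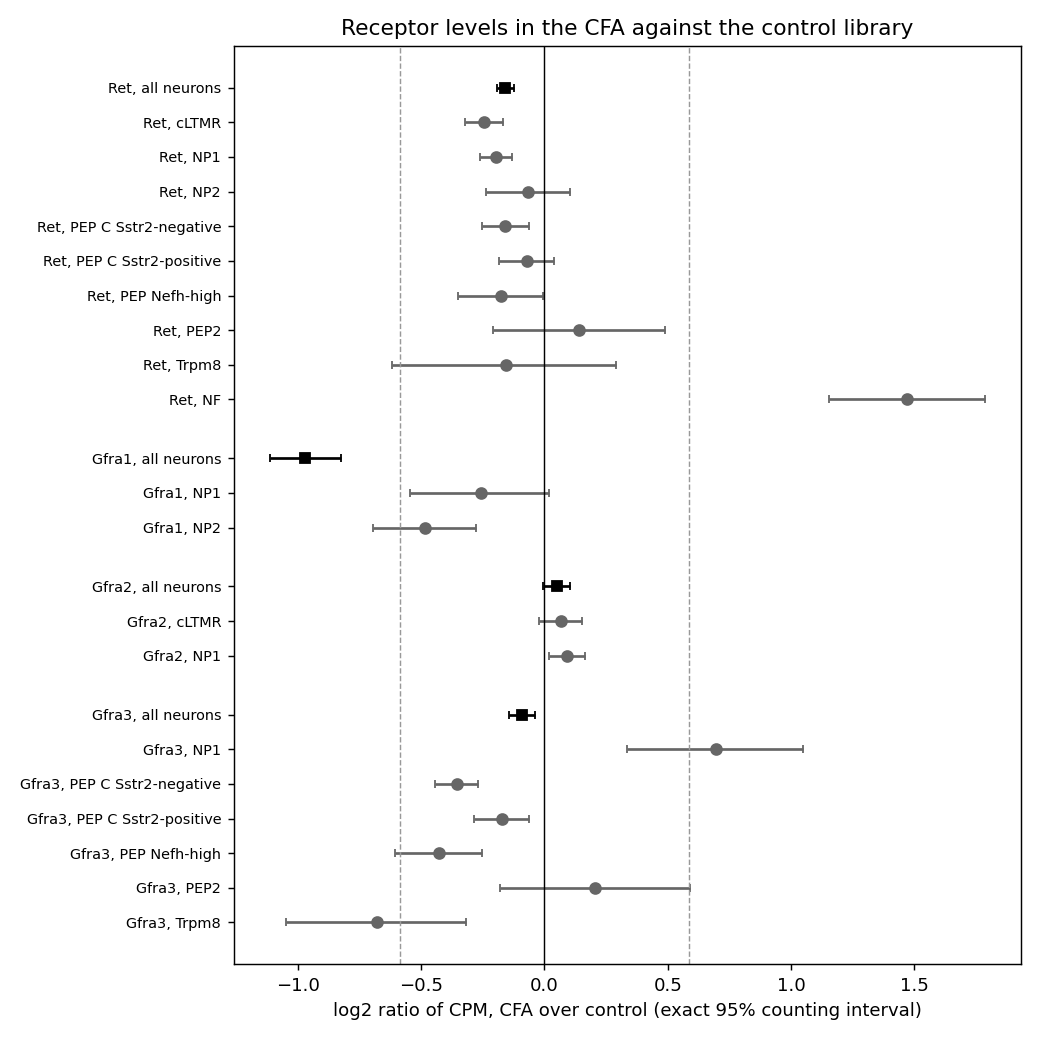
Log2 ratio of CPM in the CFA over the control library for each receptor in all neurons (squares) and in each neuron class (circles) with at least 50 UMIs in both libraries, with exact 95% counting intervals. Dashed lines mark 1.5-fold. Only Gfra1 in all neurons, Ret in NF, Gfra3 in NP1 and Gfra3 in Trpm8 neurons lie outside them.

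The other genes of the pathway were about as close between the libraries as genes in general. Of 32 listed genes 22 had at least 50 UMIs in the neurons of both libraries, and 0 of these were past 1.5-fold. Over all 11905 genes with as many UMIs the share past it was 4.69%, so 0 of 22 is near that share. The median log2 ratio was 0.00 in the list against 0.00 over all 11905 genes. The widest values belonged to Gab1, a docking protein of receptor tyrosine kinases (-0.39), Cbl, a ubiquitin ligase that ends their signalling (0.32), and Dok5, an adaptor that binds RET (0.28). Among adaptors Dok4 was at 357 CPM in the neurons of both libraries and Shc1 at 106 CPM and 112 CPM. Ncam1, which binds GDNF with GFRA1 apart from RET, was highest in SGCs among the classes compared, at 962 CPM in the control library against 1252 CPM with CFA, as was the GDNF-binding proteoglycan Sdc3 at 886 CPM and 1060.4 CPM. Spry2, a feedback inhibitor of receptor tyrosine kinases, was highest in non-myelinating Schwann cells (356 CPM and 252 CPM), as was Dusp6, a phosphatase of ERK (379 CPM and 476 CPM).

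The genes most like the receptors in their pattern were ranked by Pearson's r of log2(CPM + 1) over 18 points, the 9 neuron classes in each of 2 libraries, among 9455 genes. These points share 2 libraries and their depth, so r is a description. Ret was most like Pitpnm2 (r = 0.93), Raph1 (0.93), Nipal3 (0.92), Pip4k2a (0.91) and Zdhhc2 (0.91). The CFA NF neurons are 1 of the 18 points, and 121 of their 176 Ret UMIs came from 1 neuron. Values of r without that point are not given here. Gfra1 was most like Htatip2 (0.92), Tns3 (0.91), Agap3 (0.89), Cep85l (0.88) and Ttl (0.88). A high r does not mean that a gene is as restricted as the receptor. Control Htatip2 was at 119 CPM in NP2 and 118 CPM in PEP2, where Gfra1 was at 401 CPM and 25.6 CPM. Gfra2 was most like Dhh (0.92), which encodes the signal desert hedgehog and was at 26.6 CPM in cLTMR, 17.2 CPM in NP1 and at most 3.00 CPM in the other control classes. Rpa1 (0.89), Tmem50b (0.89), Zfp703 (0.88) and Gm40518 (0.88) followed it. Gfra3 was most like Atp2b4 (0.95), a calcium pump of the plasma membrane, Masp1 (0.95), Add3 (0.94), Map1lc3a (0.94) and Arhgap15 (0.93). Between members r was 0.56 for Ret and Gfra2, 0.28 for Ret and Gfra1, -0.31 for Ret and Gfra3 and -0.56 for Gfra2 and Gfra3.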

How the data were processed

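Single cells of TG were captured on the BD Rhapsody system, 1 library per condition. The authors deposited counts, whole numbers of UMIs per gene and cell that were not normalized, for the cells their pipeline called. The submitters' processing notes name GRCm38 and fastp, and aligner and annotation are not given in the sources used here. Samples were grouped by the treatment in the labels.

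Cells with at least 150 genes and at most 25% mitochondrial UMIs were kept. Neurons had at least 50 UMIs of Tubb3, Snap25, Uchl1, Rbfox3 and Stmn2 together, and other cells fewer than 10. Neuron gates were Mrgprd of at least 5 UMIs (NP1), Mrgpra3 5 (NP2), Nppb 5 (PEP2), Trpm8 4, Tafa4, Zfp521 and Slc17a8 together 10 (cLTMR), Calca 50 with Adcyap1 8 (PEP), and Nefh 16. The cLTMR gate also asked for UMIs of more than 1 of its genes. PEP C had Sstr2 at 0 (negative) or at least 3 (positive). Other classes were gated by summed markers, at least 16 UMIs for myelinating Schwann cells, 4 for non-myelinating ones, 8 for SGCs, 16 for fibroblasts and 5 for macrophages. Neurons in several of the NP1, NP2, PEP2, Trpm8 and cLTMR gates were set aside, as were other cells in several gates of their own. The PEP and Nefh gates were applied only to neurons in none of those gates. A neuron of the NP1 or Trpm8 gate that also passed the PEP gate thus stayed in NP1 or Trpm8. The markers, members and lists were chosen with earlier results of these data known, and the thresholds after the marker distributions were seen. Scrublet in scanpy 1.11.5 called 107 control and 4 CFA doublets, which were kept, and the CFA calls may be unreliable. Interferon-high cells had at least 5 UMIs of Gbp2, Irgm1, Iigp1, Ifit3 and Cxcl10, making up at least 1 in 1000 of their UMIs.

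UMIs were summed per class and library. CPM has exact Poisson, shares have Clopper-Pearson and ratios have conditional exact binomial intervals, all at 95%. A count of 0 was bounded by 3 UMIs. The tools were scipy 1.17.1, numpy 2.4.6, pandas 2.3.3 and Python 3.11.15. The intervals of ratios were tested on simulated Poisson counts, which they assume. That test checks the computation and not how the intervals hold when UMIs gather in few cells. Named genes were the 7 members, a list of 32 pathway genes and the 5 genes most like each receptor among those with at least 500 UMIs in neurons that are not gate markers. Alternatives were halved or doubled gates, a stricter filter (300 genes, 10% mitochondrial), no mitochondrial limit, totals without mitochondrial genes, no doublets, equal weights for cells, cells with at least 2000 UMIs, thinning (5000 UMIs for neurons, 500 for others) and centring on the median gene.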

Additional observations from a re-analysis of the deposited data

How the results depend on the processing

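No paired analysis was possible because each condition has 1 library and the result comes from no test. Of the values that answer the comparisons, 115 under alternatives stayed within the counting interval, 16 moved out of it and 1 turned its sign. Log2 ratios of CFA over control in all neurons after thinning were -0.23 (Ret), -0.12 (Gfra2) and -0.21 (Gfra3), and Gfra2 was -0.028 with every cell weighted equally. Each neuron class was also given the same weight in both libraries, by its UMIs in both together, a setting chosen after seeing the data. Gfra1 was then at -0.41 and Gfra3 at -0.24. These values leave out neurons in no class or in several gates. Leaving out cells with 5 interferon marker UMIs, also chosen after seeing the data, gave -0.50 (Gfra1), -0.13 (Gfra2) and a turned sign for Gfra3 (0.090). That rule takes out 22.7% of control and 6.73% of CFA neurons, since 5 UMIs is a low bar in deep cells, so a rule that also asks for 1 in 1000 UMIs was added after these values were seen. It takes out 4.10% and 0.748%, and Gfra1 was then at -0.998, Gfra2 at 0.02 and Gfra3 at -0.06, within their counting intervals. The cause of these moves was not tested. Gfra3 in non-myelinating over myelinating control Schwann cells was 3.77 among cells of at least 2000 UMIs. The shares of ligand UMIs in neurons rest on few UMIs. In the control library that of Gdnf was 43.1% with cells weighted equally and 33.3% after thinning, that of Nrtn 100% after thinning, and that of Artn 29.6% with cells weighted equally. In the CFA library that of Gdnf was 100% among cells of at least 2000 UMIs and 0% after thinning, and that of Nrtn 100% under the stricter filter. By class 589 log2 ratios stayed within their interval, 37 moved and 4 turned their sign, Ret in myelinating Schwann cells (1.04, at least 2000 UMIs), Ret in SGCs (0.35, thinned), Gfra2 in NP1 (-0.061, thinned) and Gfra3 in Trpm8 neurons (0.89, doubled gates). Of the CPM values by class under alternatives, 1596 stayed within their counting interval and 132 moved out of it. The class with the most of each receptor was the same under 9 of 9 alternatives in both libraries, except for Gfra3 in the CFA library (8 of 9, PEP Nefh-high under halved gates).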
